A study of Prunus sibirica with 30 samples.

Results

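Glycolysis splits sugar into pyruvate in the cytosol and yields ATP and NADH, and malate dehydrogenase, an enzyme beside it, interconverts malate and oxaloacetate and moves reducing power between compartments. In flowers these enzymes feed respiration, and in Arabidopsis the enolase gene LOS2 is also needed for the normal transcription of cold-responsive genes. The genes described here were all complete entries whose Swiss-Prot protein name contains enolase, fructose-bisphosphate aldolase, glyceraldehyde-3-phosphate dehydrogenase or malate dehydrogenase. There were 4 such genes of 143, 1 for each enzyme. The rule uses their names and no measured value.

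Transcripts were measured by RNA sequencing in blooming flowers of Prunus sibirica, the Siberian apricot, with the pistil given as the tissue in the labels and whole flowers or flower buds in the protocol. The clone labelled CR (No. 453, strong frost resistance) was compared with the clone labelled NC (No. 371, weak frost resistance), each after 0 h, 15 min, 30 min, 1 h or 2 h at -4 °C. Each of the 10 groups had 3 libraries, 30 in all, and each genotype was a single clone. The labels name no separate trees behind the replicates, so the p-values cover spread between libraries alone, which may be technical. No group was held for the same time without frost, so cold and elapsed time or handling cannot be told apart.

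Levels are in FPKM, which divides fragments by gene length and by a library size, so that genes can be compared. The 143 genes are abundant ones, with mean levels of 594 to 3835 FPKM, and 69 of them are ribosomal protein genes. They took 9.75% to 20.5% of the library size that the values imply. The share was highest in replicate 1 of CR at 0 h, and it was lowest in replicate 3 of NC at 2 h. The median level of the 143 genes was 616 ± 115 FPKM in NC at 2 h, while the other 9 group means lay between 759 and 1099 FPKM (SD, n = 3). Because many genes of a library shift together, changes are given as deposited and also relative to the library median, meaning after each library was centred on the median log2 level of all its genes. Of 7 pistil markers searched for by name 0 were among the 143 genes. In bulk tissue, fewer cells of a type and less RNA per cell cannot be told apart.

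Aldolase 1 (PaF106G0700027741.01) cleaves fructose bisphosphate into the triose phosphates. Its gene lies on the minus strand of chromosome 7 from 13178385 to 13181021, and its best match is a cytoplasmic aldolase. GAPC2 (PaF106G0100002839.01), the cytosolic glyceraldehyde-3-phosphate dehydrogenase, carries out the oxidation step that makes NADH. It lies on the minus strand of chromosome 1 from 21098037 to 21100893. Enolase (PaF106G0700027718.01) makes phosphoenolpyruvate near the end of the pathway. Its gene is on the minus strand of chromosome 7 from 13310250 to 13313851, 129228 bases from that of aldolase 1. Malate dehydrogenase (PaF106G0100000486.01) lies on the minus strand of chromosome 1 from 2974048 to 2976318, and its matched name gives no compartment. The sources used here do not name the build of these coordinates. None of the 4 shared its protein name with another of the 143 genes.

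All 4 genes varied little as deposited, and they ranked from 50 to 112 of 143 by mean level. GAPC2 averaged 1001 FPKM over the 30 libraries and ranked 50 of 143 by mean level. Malate dehydrogenase averaged 771 FPKM (rank 90), enolase 711 FPKM (rank 105) and aldolase 1 averaged 684 FPKM (rank 112). Each value rested on 11724 to 37404 reads, so its counting error was at most 0.924%, far under the spread between replicates. GAPC2 was the highest of the 4 in 30 of 30 libraries. Malate dehydrogenase was second in 7 of 15 CR libraries and in 15 of 15 NC libraries. Enolase was second in 8 CR libraries and 0 NC libraries, and it was the lowest of the 4 in 1 CR library and in 12 NC libraries. Malate dehydrogenase thus stood above enolase in every NC library, while in CR the order of these genes varied between libraries.

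Over all 30 libraries these genes were among the least variable of the table. The coefficient of variation (SD over mean) was 8.84% for GAPC2, 10.9% for malate dehydrogenase and 11.5% for aldolase 1, the 3 lowest of 143, and 13.3% for enolase, which was place 7. The median over all 143 genes was 23.0%. Their highest library exceeded their lowest by 1.52 times (malate dehydrogenase) to 1.97 times (enolase). For all 4 genes the lowest library was replicate 2 of NC at 2 h, and for aldolase 1, GAPC2 and enolase the highest was replicate 1 of CR at 0 h. Between replicates of a group the mean coefficient was 6.10% for GAPC2, 6.82% for malate dehydrogenase, 7.03% for aldolase 1 and 9.01% for enolase, against a median of 10.2% over all genes. Divided by the library median, the same genes were not unusually steady. Their coefficients were then 13.8% for GAPC2, 18.2% for malate dehydrogenase, 16.4% for aldolase 1 and 10.04% for enolase, at places 84, 112, 99 and 44 from the lowest, with a median of 12.4%.

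**Figure D1:**
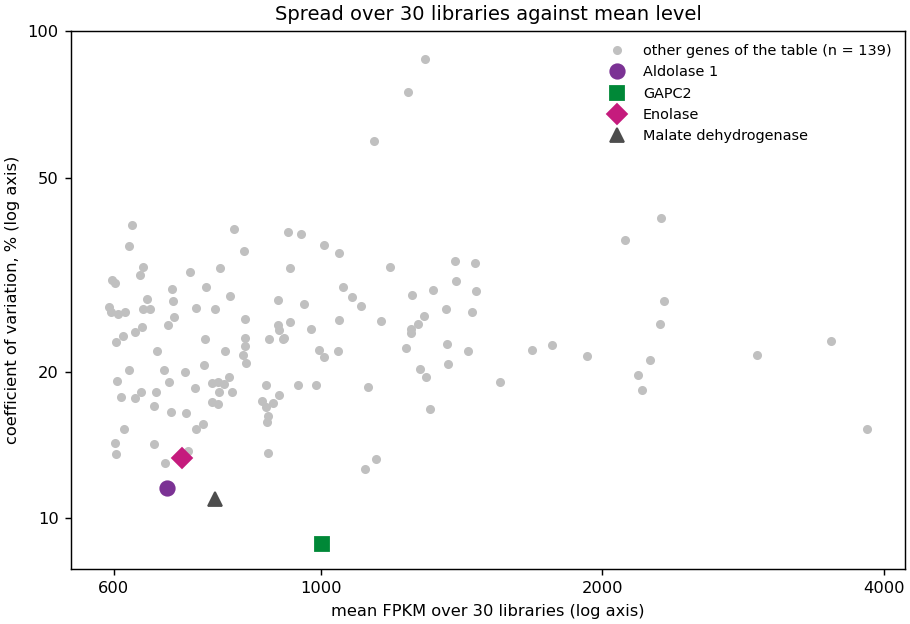
Coefficient of variation over 30 libraries (percent, log axis) against mean FPKM (log axis) for the 4 enzyme genes (coloured symbols) and the other 139 genes (grey points). GAPC2, malate dehydrogenase and aldolase 1 have the 3 lowest values, from 8.84% to 11.5%, and enolase stands at 13.3%.

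In the frost-sensitive clone NC, transcripts of all 4 enzymes were lower after 2 h at -4 °C than at 0 h. Aldolase 1 had 653, 468 and 570 FPKM in NC at 2 h, against 795, 748 and 705 FPKM in NC at 0 h. The 2 h libraries all lay below the 0 h libraries, and aldolase 1 fell by 0.42 on the log2(FPKM + 1) scale (SE 0.107, limma adjusted p = 0.00184). GAPC2 had 883, 808 and 886 FPKM at 2 h, against 1100, 1012 and 1016 FPKM at 0 h in NC. Its groups did not overlap either, and its change was the smallest of the 4 at -0.28 (SE 0.104, limma adjusted p = 0.0213). Without NC_0h replicate 1 or NC_2h replicate 2, GAPC2 no longer passed (adjusted p = 0.0878 and 0.0894).

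Enolase had 599, 488 and 555 FPKM in NC at 2 h, against 786, 728 and 716 FPKM in NC at 0 h. It fell by 0.44 (SE 0.122, limma adjusted p = 0.00341), with no overlap. Malate dehydrogenase had 683, 617 and 631 FPKM at 2 h, against 937, 861 and 836 FPKM at 0 h in NC. All 3 of its 2 h libraries lay below the 0 h libraries, and it fell by 0.45 (SE 0.101, limma adjusted p = 0.000722). Of the 143 genes, 62.9% were called lower in this comparison and 46.9% had 2 h libraries all below the 0 h libraries. The 4 of 4 enzymes therefore moved as most of the table did, with a median change of -0.43 for the enzymes and -0.39 for all genes. Relative to the library median the changes were -0.10 for aldolase 1, 0.04 for GAPC2, -0.12 for enolase and -0.12 for malate dehydrogenase, and 0 of 4 passed in limma (adjusted p = 0.144, 0.688, 0.230 and 0.241), where 41.3% of all genes did. Centred on the median of the non-ribosomal genes instead, aldolase 1, enolase and malate dehydrogenase still passed as lower. GAPC2 did not (-0.10, limma adjusted p = 0.304). With only the 2 groups in the fit, enolase passed and aldolase 1 (adjusted p = 0.0545), malate dehydrogenase (0.0521) and GAPC2 (0.233) did not.

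Only at 2 h did the enzymes pass the test in NC as deposited. In order of time from 0 h through 2 h, aldolase 1 averaged 749 ± 45.1, 745 ± 46.1, 696 ± 38.4, 755 ± 39.5 and 564 ± 93.0 FPKM (SD, n = 3). GAPC2 averaged 1043 ± 49.9, 1013 ± 45.5, 971 ± 44.1, 1034 ± 43.2 and 859 ± 44.4 FPKM at the same times. The libraries of both genes at 1 h overlapped those at 0 h. Enolase averaged 743 ± 37.3, 685 ± 51.4, 649 ± 56.1, 717 ± 28.4 and 547 ± 55.8 FPKM over the 5 times in NC. Malate dehydrogenase averaged 878 ± 52.9, 812 ± 36.6, 755 ± 97.6, 877 ± 37.5 and 643 ± 34.6 FPKM. All 4 genes had their lowest mean before 2 h at 30 min. At that time the NC libraries of enolase lay below those at 0 h, as for 6.99% of all genes, with a change of -0.20, and malate dehydrogenase changed by -0.22 with overlapping groups (limma adjusted p = 0.487 and 0.318).

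At 15 min, 30 min and 1 h limma called 0 of the 4 enzymes in NC, where it called 2.1%, 0% and 0% of all genes. At an unadjusted p under 0.05 there were 0, 1 and 0, and voom weights gave 0 at these times. At 30 min malate dehydrogenase passed with array weights (-0.21, limma adjusted p = 0.0198). Centred on the median of the non-ribosomal genes, malate dehydrogenase (-0.27) and enolase (-0.25) passed at 30 min (adjusted p = 0.0493 for both). A comparison of 2 h with 1 h in NC was added after the values were seen. In it the changes were -0.43 for aldolase 1, -0.27 for GAPC2, -0.39 for enolase and -0.45 for malate dehydrogenase, each past the threshold (limma adjusted p = 0.00163, 0.0232, 0.00602 and 0.000761) and each with groups that did not overlap. Of all genes 69.9% were called lower in that step, and 58.7% had separate groups with 2 h lower. GAPC2 did not pass it without NC_1h replicate 1, NC_1h replicate 2 or NC_2h replicate 2 (adjusted p = 0.0636, 0.0685 and 0.0903). Across the 4 times together, the limma F test called aldolase 1, enolase and malate dehydrogenase in NC (adjusted p = 0.00411, 0.0178 and 0.00215) and not GAPC2 (0.0947), against 69.9% of all genes. Without NC_2h replicate 2 only malate dehydrogenase passed, since aldolase 1 then had an adjusted p of 0.0991 and enolase 0.150. Enolase also did not pass without NC_2h replicate 3 (0.0669).

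**Figure D2:**
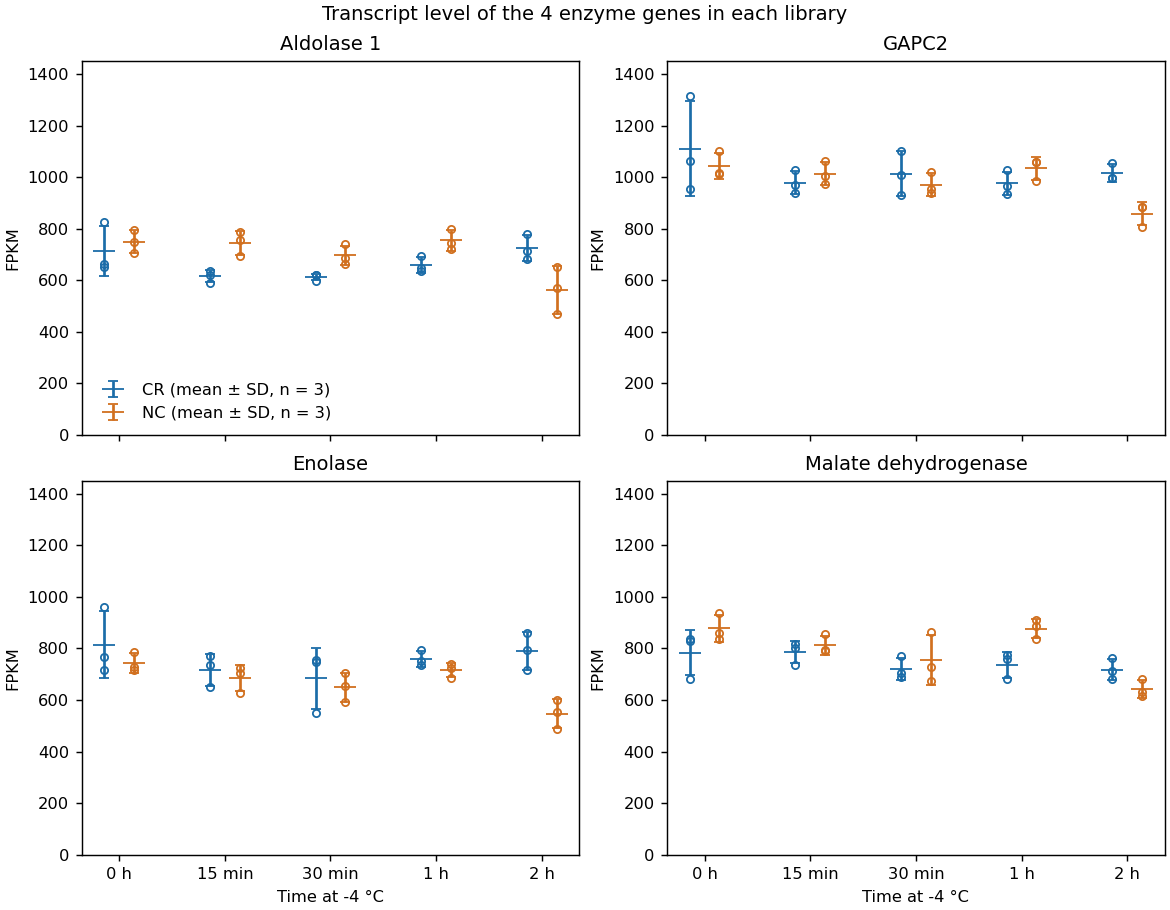
FPKM of each of the 4 enzyme genes by time at -4 °C, with CR libraries in blue left of NC libraries in orange, open circles for single libraries and bars for the mean ± SD (n = 3). The NC libraries at 2 h lie below those at 0 h in all 4 panels, and the CR libraries at 2 h overlap those at 0 h.

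In the frost-resistant clone CR, transcripts of 0 of the 4 enzymes passed the test at any time, although most of the table was lower at 15 min. GAPC2 had 1027, 970 and 938 FPKM in CR at 15 min, against 1315, 954 and 1062 FPKM in CR at 0 h. The 0 h libraries were themselves far apart, and replicate 2 lay within the 15 min range, so the change of -0.17 was not past the threshold (SE 0.104, limma adjusted p = 0.151). Enolase had 735, 649 and 769 FPKM at 15 min, against 961, 717 and 767 FPKM at 0 h in CR. Its groups overlapped, with a change of -0.18 (SE 0.122, adjusted p = 0.199). Malate dehydrogenase had 800, 736 and 818 FPKM at 15 min, against 838, 683 and 827 FPKM at 0 h in CR. Its change was 0.01 (95% confidence interval -0.20 to 0.22, limma adjusted p = 0.950), while 60.1% of all genes were called lower.

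Aldolase 1 was the only one of the 4 whose CR groups separated early. It had 638, 591 and 621 FPKM in CR at 15 min and 597, 619 and 620 FPKM at 30 min, against 824, 652 and 662 FPKM in CR at 0 h. All 6 early libraries lay below the 0 h libraries, as those of 60.8% of all genes did at 15 min and 38.5% at 30 min. The changes of -0.20 and -0.21 were not past the threshold (limma adjusted p = 0.102 and 0.111). Aldolase 1 then stood at 694, 636 and 647 FPKM at 1 h and at 779, 684 and 714 FPKM at 2 h. Between 15 min and 2 h, a comparison added after the values were seen, its groups did not overlap and the difference was 0.23 (SE 0.107, limma adjusted p = 0.0944), and with only those groups in the fit the adjusted p was 0.0364. The difference relative to the library median was -0.02 (limma adjusted p = 0.768). On that scale malate dehydrogenase fell by 0.39 (limma adjusted p = 0.00431), where 11 of 143 genes were called lower. As deposited, 22.4% of all genes were called higher at 2 h than at 15 min, and 67.1% had separate groups with 2 h higher.

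The other 3 enzymes had overlapping CR groups at each time against 0 h. From 0 h through 2 h, in order of time, GAPC2 averaged 1110 ± 185, 978 ± 44.7, 1014 ± 85.7, 975 ± 46.2 and 1017 ± 34.4 FPKM (SD, n = 3). Enolase averaged 815 ± 129, 717 ± 61.9, 684 ± 118, 759 ± 30.0 and 790 ± 72.6 FPKM at these times. In its wide 30 min group replicate 1 had 549 FPKM and the others 748 and 757 FPKM. Malate dehydrogenase averaged 783 ± 86.7, 785 ± 43.0, 721 ± 43.2, 737 ± 50.5 and 718 ± 41.1 FPKM. At 2 h the changes from 0 h were 0.03 for aldolase 1 (95% confidence interval -0.19 to 0.25), -0.11 for GAPC2 (-0.33 to 0.10), -0.04 for enolase (-0.29 to 0.21) and -0.12 for malate dehydrogenase (-0.33 to 0.09).

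Over the 4 comparisons with 0 h in CR limma thus called 0 of the 4 enzymes, while of all genes it called 60.8% after 15 min, 33.6% after 30 min, 6.29% after 1 h and 0% after 2 h. The numbers of enzymes at an unadjusted p under 0.05 were 0, 1, 0 and 0, and voom weights called 0. The F test over the times also called 0 of 4 in CR (0 at an unadjusted p under 0.05), against 35% of all genes. The CR results leaned on the 0 h libraries: without CR_0h replicate 2, GAPC2 was lower at 15 min and 1 h (-0.27 and -0.28), aldolase 1 at 15 min and 30 min (-0.26 and -0.27) and enolase at 30 min (-0.34), with limma adjusted p of 0.0212, 0.0296, 0.0428, 0.0422 and 0.0283. Relative to the library median the direction at 15 min turned for aldolase 1, GAPC2 and enolase, since centring took out a shift of -0.36. Malate dehydrogenase was then 0.37 higher (SE 0.083, limma adjusted p = 0.00452) and aldolase 1 was 0.16 higher (SE 0.053, adjusted p = 0.0291), where 13.3% of all genes were called higher. GAPC2 and enolase had relative changes of 0.19 and 0.19 that did not pass (adjusted p = 0.0694 and 0.0718).

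**Figure D3:**
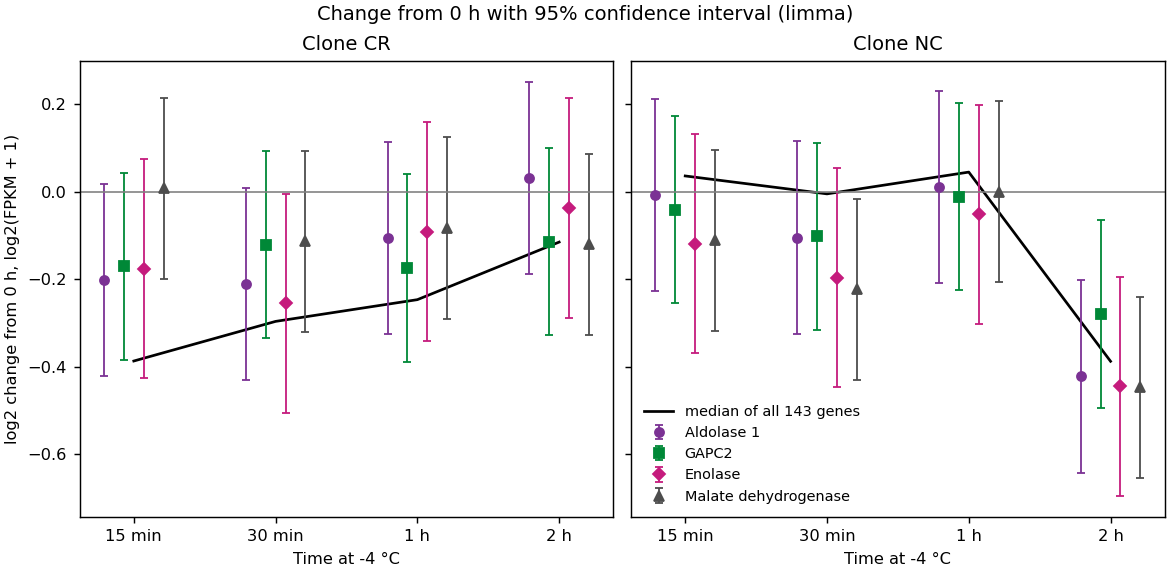
Change of log2(FPKM + 1) from 0 h at each later time in CR (left) and NC (right), with 95% confidence intervals from limma, for the 4 enzyme genes (symbols) and the median of all 143 genes (black line). In CR the enzymes lie above the black line at 15 min, where it stands at -0.39, and in NC enzymes and line are both low at 2 h.

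Whether the enzymes changed differently in the 2 clones was tested as the clone by time interaction. Aldolase 1 passed the F test over the times (limma adjusted p = 0.00454), as 78.3% of all genes did, and enolase (0.0610), malate dehydrogenase (0.0902) and GAPC2 (0.234) did not. At 2 h the change of aldolase 1 from 0 h was 0.03 in CR and -0.42 in NC, a difference of 0.45 (SE 0.152, limma adjusted p = 0.0360), where 16.8% of all genes were called. Relative to the library median this difference was 0.24 (adjusted p = 0.0266, 24.5% of all genes called), while the F test of aldolase 1 no longer passed (adjusted p = 0.0878, 49% called) and that of malate dehydrogenase did (0.0124). The same difference was 0.41 for enolase, 0.33 for malate dehydrogenase and 0.17 for GAPC2, none past the threshold (adjusted p = 0.0920, 0.0979 and 0.416). The call for aldolase 1 at 2 h was lost without CR_0h replicates 2 or 3, CR_2h replicates 1 or 3, NC_0h replicates 1 or 2 or NC_2h replicates 2 or 3, with adjusted p from 0.0605 to 0.147, and with only the 4 groups in the fit (0.188). At 15 min, 30 min and 1 h 0 of 4 passed as deposited (0 at an unadjusted p under 0.05), against 42.7%, 9.09% and 0.699% of all genes. Relative to the library median, the difference in change was 0.48 for malate dehydrogenase and 0.30 for enolase at 15 min and 0.40 for malate dehydrogenase at 30 min (limma adjusted p = 0.00383, 0.0338 and 0.0232), where 46.9% and 18.9% of all genes were called at those times. For the 2 h difference, without CR_0h replicate 1 or NC_2h replicate 1, enolase and malate dehydrogenase passed as well.

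Comparing the clones, 1 of the 4 enzymes passed the test at any time up to 1 h, while the median gene of the table was higher in CR by 0.59 before frost, then by 0.16, by 0.28 and, after 1 h, by 0.29. Before frost, 0 of 4 passed in limma (0 at an unadjusted p under 0.05), whereas 74.8% of all genes did. The difference at 0 h was -0.08 for aldolase 1 (95% confidence interval -0.30 to 0.14), 0.08 for GAPC2 (-0.14 to 0.29), 0.12 for enolase (-0.13 to 0.37) and -0.17 for malate dehydrogenase (-0.38 to 0.04). At 15 min and 30 min 0 of 4 passed (1 and 0 at an unadjusted p under 0.05, and 0 with voom weights), against 14.7% and 46.2% of all genes.

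Aldolase 1 lay lower in CR at the middle times and higher at 2 h. Its 3 CR libraries were all below the 3 NC libraries at 15 min, 30 min and 1 h, with differences of -0.27, -0.18 and -0.20 that did not pass the threshold (limma adjusted p = 0.0909, 0.149 and 0.130). Such a complete separation with CR lower was found for 5.59%, 8.39% and 8.39% of all genes. With array weights in limma these 3 differences passed (adjusted p = 0.00264, 0.00757 and 0.00495). Enolase also passed in that fit as higher in CR at 30 min (0.19, adjusted p = 0.00552). Between clones by time array weights gave 9 calls among the enzymes, against 4 in the main fit. The share of all genes called with array weights was not counted for any comparison. Malate dehydrogenase had 775, 757 and 680 FPKM in CR at 1 h, against 887, 908 and 835 FPKM in NC. It was the only enzyme called lower in CR at any time (-0.25, SE 0.101, limma adjusted p = 0.0420), among 6.29% of all genes, and it did not pass without any 1 of the 6 libraries (adjusted p from 0.0601 to 0.177).

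At 2 h aldolase 1, GAPC2 and enolase were higher in CR as deposited, and relative to the library median all 4 enzymes were lower in CR (-0.36 for aldolase 1, -0.49 for GAPC2, -0.20 for enolase and -0.57 for malate dehydrogenase, each past the threshold). Centred on the median of the non-ribosomal genes, GAPC2 (-0.20) and malate dehydrogenase (-0.29) were lower in CR (limma adjusted p = 0.0397 and 0.00682). Aldolase 1 (-0.07) and enolase (0.08) then did not pass (adjusted p = 0.344 and 0.354). Enolase had 861, 793 and 716 FPKM in CR at 2 h, against 599, 488 and 555 FPKM in NC, a difference of 0.53 (SE 0.122, limma adjusted p = 0.000237). Aldolase 1 had 779, 684 and 714 FPKM in CR, against 653, 468 and 570 FPKM in NC, a difference of 0.38 (SE 0.107, limma adjusted p = 0.00193). GAPC2 had 1056, 997 and 996 FPKM in CR, against 883, 808 and 886 FPKM in NC, a difference of 0.24 (SE 0.104, limma adjusted p = 0.0301). The groups of these 3 genes did not overlap, as for 84.6% of all genes with CR higher. GAPC2 did not pass without CR_2h replicate 1 or NC_2h replicate 2 (adjusted p = 0.0912 and 0.0994) or with only these groups in the fit (0.228). Malate dehydrogenase, with 712, 762 and 680 FPKM in CR and 683, 617 and 631 FPKM in NC, overlapped and did not pass (0.16, adjusted p = 0.136). With array weights it passed (0.17, limma adjusted p = 0.0480). Of all genes 84.6% were called higher in CR at 2 h, with a median difference of 0.84, and the differences of all 4 enzymes lay below that median.

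Averaged over the 5 times, enolase was higher in CR (0.17, SE 0.055, limma adjusted p = 0.00461), against 81.8% of all genes called higher. Aldolase 1 (-0.07, SE 0.048), GAPC2 (0.05, SE 0.047) and malate dehydrogenase (-0.07, SE 0.045) did not pass (adjusted p = 0.164, 0.323 and 0.120). Aldolase 1 passed as lower without CR_0h replicate 1 (-0.09, adjusted p = 0.0486) or NC_2h replicate 2 (-0.10, adjusted p = 0.0405). The mean level over 15 libraries was 665 ± 65.5 FPKM in CR and 702 ± 88.6 in NC for aldolase 1, and 1019 ± 96.2 in CR and 984 ± 79.5 in NC for GAPC2 (SD). For enolase it was 753 ± 90.4 FPKM in CR and 668 ± 81.1 in NC, and for malate dehydrogenase 749 ± 56.0 in CR and 793 ± 103 in NC. By mean level in each clone, aldolase 1 ranked 135 in CR and 81 in NC, GAPC2 62 in CR and 43 in NC, enolase 114 in CR and 95 in NC, and malate dehydrogenase 115 in CR and 61 in NC.

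Relative to the library median all 4 enzymes were lower in CR averaged over the times, a direction that turned for GAPC2 and enolase. Centring took out a shift of 0.38, and the relative differences were -0.45 for aldolase 1 (SE 0.024, limma adjusted p = 7.59e-14), -0.33 for GAPC2 (SE 0.036, adjusted p = 2.36e-08), -0.20 for enolase (SE 0.036, adjusted p = 1.98e-05) and -0.45 for malate dehydrogenase (SE 0.037, adjusted p = 1.59e-10). Of all genes 28% were called lower in CR on this scale and 41.3% higher. The numbers of enzymes called lower from 0 h through 2 h were 4, 1, 2, 3 and 4, against 27.3%, 13.3%, 16.1%, 16.8% and 23.8% of all genes. Aldolase 1 was called at each of the 5 times. Centred on the median of the non-ribosomal genes, it was not called at 2 h (-0.07, limma adjusted p = 0.344).

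On this relative scale all CR libraries of aldolase 1 lay below all NC libraries, as for 6 of 143 genes (4.2%), while 5.59% lay wholly above. Divided by the library median it was lowest at 0.626, 0.700 at the median and highest at 0.739 in the 15 CR libraries, against 0.859, 0.969 and 1.03 in the 15 NC libraries. Malate dehydrogenase ran from 0.652 to 0.967 in CR (median 0.781) and from 0.912 to 1.18 in NC (median 1.12), with 13 CR libraries below all NC libraries. GAPC2 ran from 0.985 to 1.29 in CR (median 1.03) and from 1.18 to 1.60 in NC (median 1.31), also with 13 CR libraries below all NC libraries. At least 13 CR libraries lay below all NC libraries for 15 of 143 genes, and above them for 15. For enolase the ranges were 0.643 to 0.908 in CR (median 0.803) and 0.800 to 1.00 in NC (median 0.894), with 7 CR libraries below all NC libraries. The reference here is a median over a table in which 69 of 143 genes are ribosomal. Centred on the other genes instead, the mean differences were -0.18 for GAPC2 (limma adjusted p = 0.000218) and -0.05 for enolase (adjusted p = 0.188), so enolase no longer passed.

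**Figure D4:**
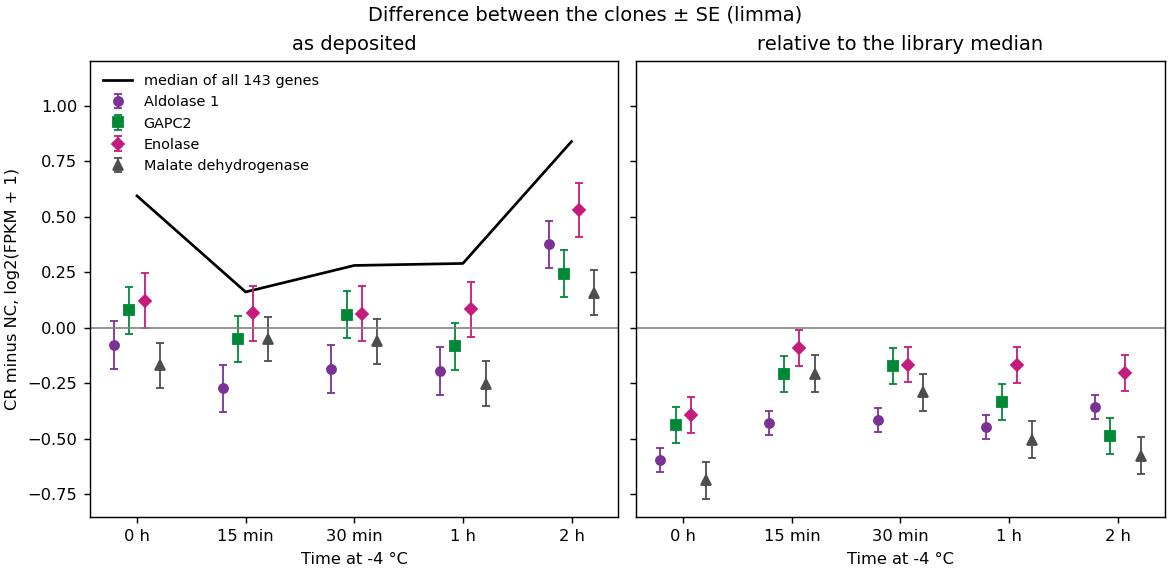
CR minus NC in log2(FPKM + 1) at each time, ± SE from limma, as deposited (left) and relative to the library median (right), for the 4 enzyme genes and, on the left, the median of all 143 genes (black line). On the left the enzymes lie between -0.27 and 0.12 from 0 h through 1 h and below the black line at all 5 times. On the right all 4 lie below 0 at each time.

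Ratios between 2 enzymes in the same library do not depend on how the library was scaled. They were compared between the clones by an exact permutation test of the clone labels within each time, two-sided and adjusted over the 6 ratios, a test added after the values were seen. Enolase stood higher beside aldolase 1 in CR. The log2 ratio of enolase to aldolase 1 averaged 0.17 ± 0.11 in CR and -0.07 ± 0.07 in NC (SD, 15 libraries each), a difference of 0.24 (exact permutation, adjusted p = 3.75e-05), and 13 of 15 CR libraries lay above all NC libraries. The exceptions were CR_30min replicate 1 at -0.12 and CR_2h replicate 3 at 0.00. The log2 ratio of malate dehydrogenase to enolase averaged 0.00 ± 0.16 in CR and 0.25 ± 0.06 in NC, a difference of -0.25 (exact permutation, adjusted p = 0.000101), with 13 of 15 CR libraries below all NC libraries.

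The ratio of malate dehydrogenase to aldolase 1 did not differ past the threshold, at 0.17 ± 0.16 in CR and 0.18 ± 0.10 in NC (exact permutation, adjusted p = 0.938). The ratio of GAPC2 to malate dehydrogenase was higher in CR, at 0.44 ± 0.12 and 0.32 ± 0.09 in NC (exact permutation, adjusted p = 0.00421), with overlapping ranges. The ratio of GAPC2 to aldolase 1 was 0.61 ± 0.11 in CR and 0.49 ± 0.10 in NC (exact permutation, adjusted p = 0.0103). The ratio of GAPC2 to enolase was lower in CR, at 0.44 ± 0.18 and 0.56 ± 0.08 in NC (exact permutation, adjusted p = 0.0234), and it no longer passed without CR_30min replicates 2 or 3 or NC_30min replicate 3 (adjusted p = 0.0836, 0.104 and 0.0689). Such differences were common in the table: of all 10153 pairs of genes, 53% differed between the clones by at least as much as enolase and aldolase 1 did, and 21.8% had at least 13 CR libraries beyond all NC libraries on 1 side.

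**Figure D5:**
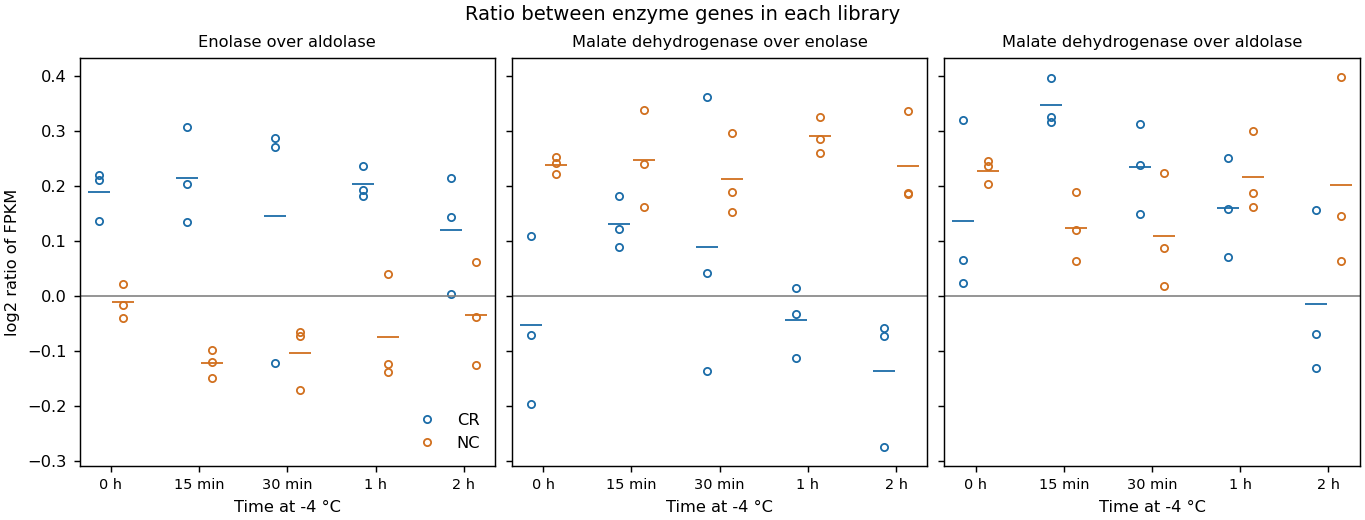
Log2 ratio of FPKM in each library by time at -4 °C for enolase over aldolase 1, malate dehydrogenase over enolase and malate dehydrogenase over aldolase 1, with CR in blue left of NC in orange and bars for group means. In the left panel 13 of 15 CR libraries lie above all NC libraries, and in the middle panel 13 of 15 lie below them.

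Ordered by group mean, NC at 2 h was the lowest of the 10 groups for all 4 enzymes. The median level of the 143 genes was also lowest there (616 FPKM), and the order was not worked out for other genes. For GAPC2 the step down to NC at 2 h was the only one where neighbouring groups did not overlap. All 3 libraries of NC at 30 min, the next group, were above the NC libraries at 2 h. For aldolase 1, enolase and malate dehydrogenase no neighbouring groups in the order were separate. The highest group was NC at 1 h for aldolase 1, CR at 0 h for GAPC2 and enolase, and NC at 0 h for malate dehydrogenase.

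Across the 30 libraries, the genes most like each enzyme were found by Pearson's r of centred log2 levels, given as a description, since the libraries share clones, times and the common median. Aldolase 1 was most like the aspartyl protease AED3 (r = 0.98), an S-adenosylmethionine decarboxylase (PaF106G0100003565.01, r = 0.93) and adenosylhomocysteinase (r = 0.91). Malate dehydrogenase was most like adenosylhomocysteinase (r = 0.96), AED3 (r = 0.92) and GAPC2 (r = 0.90). GAPC2 was most like malate dehydrogenase (r = 0.90), adenosylhomocysteinase (r = 0.89) and arabinogalactan protein 31 (r = 0.89). Enolase was most like the cytosolic ascorbate peroxidase (r = 0.87), elongation factor 1-alpha (PaF106G0600022515.01, r = 0.86) and polyphenol oxidase (r = 0.85), none of which is an enzyme of the pathway. Among the 4 enzymes r ran from 0.67 (GAPC2 and enolase) to 0.90, and on deviations from the group means from 0.00 (GAPC2 and enolase) to 0.55 (GAPC2 and malate dehydrogenase).

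Of the other genes of energy metabolism, lists of further glycolysis, fermentation, tricarboxylic acid cycle and sucrose or starch enzymes had 0 members among the 143 genes. The Calvin cycle list had 1 member, the Rubisco small chain, a subunit of the enzyme that fixes CO2. The mitochondrial ATP list had 1, the ATP synthase 6 kDa subunit. The Rubisco small chain fell in NC at 2 h (-0.62, limma adjusted p = 0.0129), while the ATP synthase subunit changed by 0.13 there (adjusted p = 0.328). In CR at 15 min the ATP synthase subunit fell (-0.68, adjusted p = 0.000628), where none of the 4 enzymes passed. Averaged over the times the ATP synthase subunit was higher in CR by 0.54 and Rubisco by 0.42 (adjusted p = 8.83e-10 and 0.000181), the second equal to the median of all genes. The Rubisco small chain, relative to the library median, differed by 0.04 between clones (adjusted p = 0.643) and changed by -0.30 in NC at 2 h (0.183). On that scale the ATP synthase subunit was 0.17 higher in CR (0.000411), rose by 0.46 in NC at 2 h (0.000317) and fell by 0.32 in CR at 15 min (0.0110). Of 8 green tissue markers 6 fell in NC at 2 h, where 62.9% of all genes were called lower, with a summed level of 5928 to 8433 FPKM at 2 h, against 10015 to 12148 FPKM at 0 h, and the only pollen and anther marker present, an Olee1-like protein, fell by 0.50 (adjusted p = 0.000956). In NC at 15 min 2 of the 8 fell, where 1.4% of all genes were called lower. In CR 6 of the 8 fell at 15 min, where 60.1% of all genes did, with a summed level of 8357 to 10289 FPKM, against 10479 to 16306 FPKM at 0 h. At 2 h all 8 were higher in CR than in NC, where 84.6% of all genes were. Their part in the results for the enzymes was not tested.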

How the data were processed

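RNA of 30 flower libraries of 2 clones was sequenced. The authors deposited FPKM per gene and library. The submitters' processing notes list GATK, HISAT2, SAMtools 0.1.18 and Picard without roles or order, and the sources used here name no counter, annotation or build. Of the table, 143 complete entries were used and 1 incomplete entry was dropped. Genes of lower abundance were not analysed here. Multiplied by gene length, 4290 of 4290 values were whole multiples of 1 step per library (tolerance 1e-06), which gave the reads behind each value, 1731103 to 3544827 per library in all. Because FPKM are shares, a change in abundant transcripts moves all values of a library.

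limma 3.58.1 in R 4.3.3 was fitted to log2(FPKM + 1) of all genes, with 10 group means, a mean-variance trend and 28.1 moderated degrees of freedom. P-values were two-sided and Benjamini-Hochberg adjusted over all 143 genes within each comparison, with a threshold of 0.05. Fold changes are on that log2 scale. No low-value filter was used. The members and lists were chosen with earlier results of these data known. Every gene of the name rule is named, with list members and the 3 genes most like each. Fits were tested on simulated data. Libraries of a group differed by more than counting noise (chi-square per degree of freedom at least 29.5).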

Additional observations from a re-analysis of the deposited data

Results flagged for a closer look

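Aldolase 1 changed differently over time in the 2 clones, as the interaction test over the 4 times shows (limma adjusted p = 0.00454, and 0.0878 relative to the library median), as 78.3% of all genes did. The clones differed most at 2 h, where the change from 0 h in CR exceeded that in NC by 0.45 on the log2 scale (limma adjusted p = 0.0360), where 16.8% of all genes were called, with 3 of 3 NC libraries at 2 h below all NC libraries at 0 h and overlapping groups in CR. Of all genes 46.9% had such separate NC groups. The 2 h call was lost without any 1 of 8 of the 12 libraries (adjusted p from 0.0605 to 0.147) and with the 4 groups fitted alone (0.188).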

How the results depend on the processing

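Calls were counted here, 1 for each enzyme and comparison, so a count over several times can exceed the 4 enzymes. Leaving out 1 library at a time, the calls numbered 0 to 5 in CR over time (0 with all libraries) and 3 to 4 in NC over time (4). They numbered 3 to 4 between clones by time (4) and 1 to 2 for the mean over times (1). In the F tests of CR and NC they numbered 0 to 0 and 1 to 3 (0 and 3). The interaction F test had 1 to 2 calls (1), and the interaction by time had 0 to 3 (1). Centred on the library median these counts were 2, 0, 14, 4, 1 and 0, with 1 in the interaction F test (malate dehydrogenase in place of aldolase 1) and 4 by time. Centred on the non-ribosomal median they were 1 in CR and 5 in NC over time, 11 between clones by time, 3 for the mean, 2 in the interaction F test and 4 by time. With the compared groups fitted alone, 1 passed in NC over time and 0 in the interaction by time. Array weights gave 9 between clones by time, 1 in the CR F test and 4 in the interaction F test.

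Some differences called as deposited or after centring changed direction under centring, and others kept it. Under the other alternatives 54 differences changed sign, 0 of them past the threshold before or after, with sizes up to 0.109 and adjusted p of at least 0.398. On the library median, aldolase 1 in CR at 15 min became 0.16, GAPC2 in NC at 2 h 0.043 against 0 h and 0.092 against 1 h, and the enolase interaction at 15 min 0.30. CR minus NC became -0.44 for GAPC2 and -0.39 for enolase at 0 h, -0.49 for GAPC2, -0.57 for malate dehydrogenase, -0.20 for enolase and -0.36 for aldolase 1 at 2 h, and -0.33 for GAPC2 and -0.20 for enolase in the mean. On the non-ribosomal median it became -0.29 for GAPC2 and -0.24 for enolase at 0 h, -0.20 for GAPC2, -0.29 for malate dehydrogenase and -0.070 for aldolase 1 at 2 h, and -0.18 for GAPC2 and -0.054 for enolase in the mean. The cause was not tested.

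The replicate numbers were not taken as pairs: deviations of same-numbered libraries had a median r of 0.068, and 14 of 30 libraries correlated best with their own number. With the replicate block the counts were 0 in CR over time, 4 in NC over time, 4 between clones by time, 1 for the mean, 0 and 3 in the F tests, 1 in the interaction F test and 1 by time, and no call changed. The low-value filter removed 0 genes. Counting error was at most 0.924% of a value.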
